A study of Mus musculus with 6 samples.

Results

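The genes described here are 6 nuclear genes that low oxygen induces through hypoxia-inducible factor (HIF) and whose proteins act at mitochondria: Bnip3, Bnip3l, Fam162a, Higd1a, Mgarp and Ak4. They were picked by gene name, and all 6 are among the 4994 genes of the deposited expression table. RNA was sequenced from mouse inner ear organoids, floating 3-dimensional cultures of wild-type cells that the labels call epithelial. All cultures received 20 ng/mL EGF, 10 ng/mL bFGF, 50 ng/mL IGF and 3 µM CHIR99021, which inhibits the kinase GSK3, with fresh medium every 2 days. The PD group (n = 3) was also given 1 µM PD0325901, which blocks the MEK kinases upstream of ERK, and the DMSO group (n = 3) an equal volume of solvent, both for 10 days; the study asked how the inhibitor acts on the formation of hair cells. Strain, age and whether samples of a group came from separate cultures are not given in the labels, so the spread behind each p-value may be technical.

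As background, HIF is a transcription factor whose alpha subunit is hydroxylated in normal oxygen by prolyl hydroxylases and then destroyed. In low oxygen it accumulates, binds a short DNA core in the promoters of its targets and raises glycolysis while mitochondrial use of oxygen is restrained. Part of that programme acts on the organelle itself. BNIP3 and its paralog BNIP3L, also called NIX, sit in the outer mitochondrial membrane and recruit LC3 and GABARAP proteins, so that the organelle is taken up by autophagy, a process named mitophagy. HIGD1A is an inner membrane protein that associates with the respiratory chain, AK4 is a nucleotide kinase of the mitochondrial matrix, MGARP takes part in the transport and shape of mitochondria, and FAM162A, also called HGTD-P, is a mitochondrial protein linked to cell death in hypoxia.

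All 6 genes were lower in PD than in DMSO organoids, and in each of them every PD sample lay below every DMSO sample. The level left in PD ranged from 1.16% of the DMSO mean for Mgarp to 33.3% for Bnip3l. By limma, with p-values adjusted over the whole table, all 6 were called lower. The background for that count is high: 51.1% of the genes in the table were called lower, 44.5% higher and so 95.5% in all. Groups did not overlap in 95.2% of the genes, and in 50.6% PD was the lower. The authors had kept only genes that changed 1.5-fold or more with an adjusted p no higher than 0.0499 on these same samples, so a difference in each listed gene was fixed by the selection. What the table leaves to be described is the direction, the size and the spread of each gene. The median log2 difference of the 6 genes was -3.03 on the log2(value + 1) scale, beside -0.42 over all genes of the table and -0.91 over the genes called lower.

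The promoters of these genes are printed to show where the letters of the HIF core stand in them; binding was not measured here. RefSeq promoter windows of the GRCm38.p6 build, from 250 bases before to 50 bases after an annotated start, were found for 5 of the 6 genes, all but Bnip3l. The letters searched, on both strands, were the HIF core in its forms ACGTG and GCGTG, which may overlap each other. Each window is printed 5′ to 3′ on the strand of its gene, with every match in capitals, a match on the opposite strand appearing as its reverse complement.
Bnip3, chr7:138909457-138909756, minus strand: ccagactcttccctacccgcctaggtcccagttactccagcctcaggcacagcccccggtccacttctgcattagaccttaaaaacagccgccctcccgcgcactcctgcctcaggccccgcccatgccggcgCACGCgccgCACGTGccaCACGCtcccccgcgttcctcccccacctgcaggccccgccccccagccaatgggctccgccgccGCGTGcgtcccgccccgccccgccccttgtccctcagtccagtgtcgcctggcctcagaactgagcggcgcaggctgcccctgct
Fam162a, chr16:36071512-36071811, minus strand: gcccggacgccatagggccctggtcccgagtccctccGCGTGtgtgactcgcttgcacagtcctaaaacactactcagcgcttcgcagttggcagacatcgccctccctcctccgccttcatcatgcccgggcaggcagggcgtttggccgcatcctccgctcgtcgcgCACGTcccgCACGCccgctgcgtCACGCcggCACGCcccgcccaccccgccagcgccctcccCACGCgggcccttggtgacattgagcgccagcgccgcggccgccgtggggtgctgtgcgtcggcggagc
Higd1a, chr9:121857747-121858046, minus strand: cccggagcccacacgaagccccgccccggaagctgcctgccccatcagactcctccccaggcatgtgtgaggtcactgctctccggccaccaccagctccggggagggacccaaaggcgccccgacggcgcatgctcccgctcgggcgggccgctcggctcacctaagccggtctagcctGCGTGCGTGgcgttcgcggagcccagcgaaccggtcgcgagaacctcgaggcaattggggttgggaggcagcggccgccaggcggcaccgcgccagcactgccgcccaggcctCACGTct
Mgarp, chr3:51396498-51396797, minus strand: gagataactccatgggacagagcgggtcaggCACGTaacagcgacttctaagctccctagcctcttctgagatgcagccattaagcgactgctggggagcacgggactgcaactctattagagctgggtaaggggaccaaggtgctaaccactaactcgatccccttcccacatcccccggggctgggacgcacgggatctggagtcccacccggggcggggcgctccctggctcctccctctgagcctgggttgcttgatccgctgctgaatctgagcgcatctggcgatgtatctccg
Ak4, the last of its 4 windows, chr4:101419453-101419752, plus strand: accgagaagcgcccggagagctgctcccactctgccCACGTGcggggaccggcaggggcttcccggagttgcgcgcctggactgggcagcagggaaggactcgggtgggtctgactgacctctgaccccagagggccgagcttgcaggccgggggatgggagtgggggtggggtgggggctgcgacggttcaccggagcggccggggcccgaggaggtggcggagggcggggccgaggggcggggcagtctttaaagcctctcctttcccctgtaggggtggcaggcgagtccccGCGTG

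All 5 genes with a window held ACGTG at least 1 time, against 21.8% of the 27025 genes with a window. The Bnip3 window held 5 matches of either form, among them a palindromic pair of ACGTG matches whose first bases lie 108 and 107 bases before the start. Fam162a held 6 matches, 1 of ACGTG at 81 bases before the start and 5 of GCGTG. Higd1a held 2 of GCGTG, at 70 and 66 bases before the start, and 1 of ACGTG after it. Mgarp, whose values fell furthest, held 1 match, of ACGTG, 219 bases before the start. Ak4 has 4 annotated starts. The 3 windows that lie together held GCGTG alone, and the palindromic ACGTG pair stood in the last one.

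**Figure D1:**
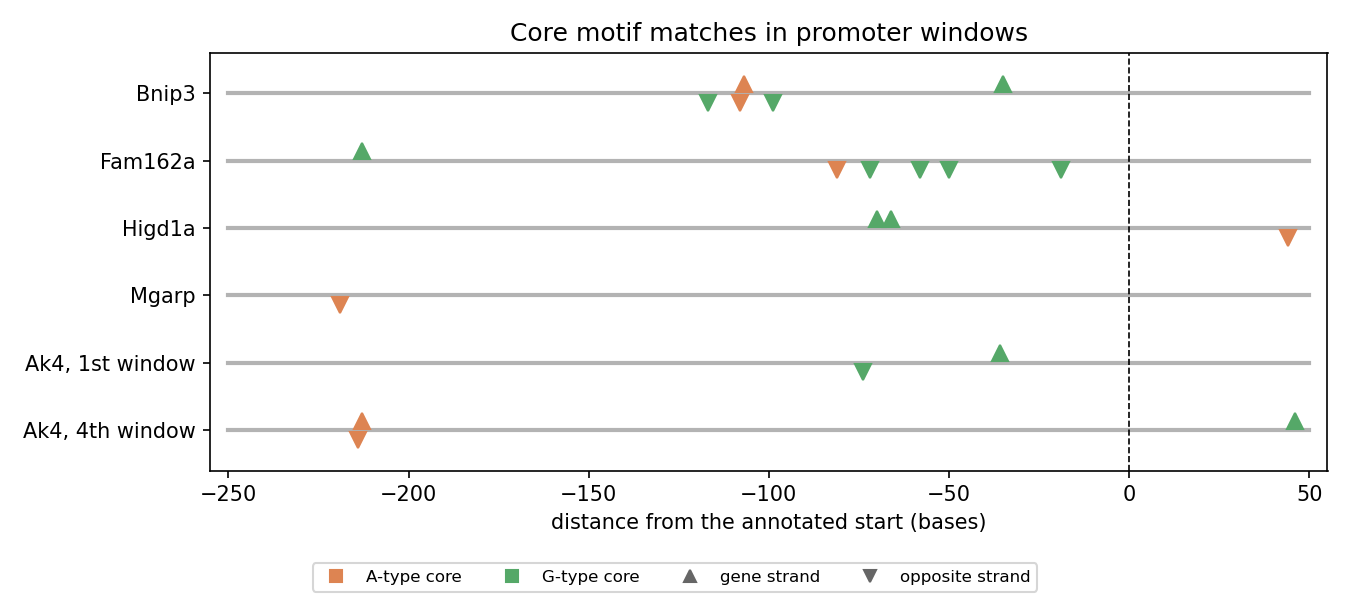
Positions of the core matches in the promoter windows of 5 genes, as distance in bases from the annotated start (dashed line); orange marks ACGTG (A-type), green GCGTG (G-type), and the direction of a triangle gives the strand. Fam162a has 6 matches and Mgarp 1, and both Bnip3 and the last Ak4 window carry a pair of orange marks next to each other.

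The letters contain CG, and these windows are rich in G and C, at 60.7% for Mgarp and 64.3% to 72.7% for the others, beside a median of 52.7% over all windows. Among the 9690 windows with at least 60% G and C, 26.5% held ACGTG and 69.2% held either form. These shares are counted per window, while a gene counts as holding a match if any of its windows does. Of the genes called lower in PD that had a window, 31.1% held ACGTG, and of those called higher 24.9%. In a panel of other known HIF targets, 19 of the 30 genes with a window did. A match is a description of the letters and not evidence of binding.

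Bnip3 (ENSMUSG00000078566, GRCm38 chromosome 7, 138890836 to 138909519, minus strand) encodes the mitophagy receptor most closely tied to hypoxia. Its normalized signal was 698.1, 848.7 and 817.6 in DMSO samples 1 to 3 and 88.1, 98.0 and 74.1 in PD samples 1 to 3. The lowest DMSO value was 7.12 times the highest PD value. Means were 788.2 ± 79.5 and 86.7 ± 12.0 (SD, n = 3), a ratio of 9.09, and the log2 difference was -3.17 ± 0.11 (SE; adjusted p by limma = 8.19e-07). In the authors' deposited table the fold of PD over DMSO was 0.105.

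Bnip3l (ENSMUSG00000022051, chromosome 14, 66985239 to 67008877, minus strand), the paralog best known for clearing mitochondria from maturing red blood cells, fell least of the 6. It stood at 319.6, 366.9 and 347.9 in DMSO and at 112.8, 111.8 and 119.9 in PD. The PD samples lay close together, with an SD of 3.85% of their mean. The log2 difference was -1.58 ± 0.06 (SE, limma adjusted p = 1.25e-06), and the authors' deposited table gives a fold of 0.347.

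The 2 receptor genes therefore fell by different amounts. The ratio of Bnip3 to Bnip3l was 2.18, 2.31 and 2.35 in DMSO samples 1 to 3 and 0.781, 0.877 and 0.618 in PD samples 1 to 3. The ratio was lower in every PD sample than in any DMSO sample, and being taken within a sample it does not depend on how libraries were scaled. The log2 ratio changed by -1.60, with an exact two-sided permutation p = 0.1, the smallest that 3 samples against 3 allow. The ratio compares how the genes changed; the file does not state whether values are per length, so it does not say which transcript was more abundant.

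Fam162a (ENSMUSG00000003955, chromosome 16, 36043761 to 36071594, minus strand) was at 498.9, 556.8 and 532.8 in DMSO and at 64, 85.4 and 63.2 in PD. Sample 2 was the highest of its group on both sides. The mean fell from 529.5 ± 29.1 to 70.9 ± 12.6 (SD, n = 3), or by 2.90 ± 0.12 on the log2(value + 1) scale (SE; adjusted p by limma = 1.19e-06). The coding gene Wdr5b overlaps Fam162a on the opposite strand and moved the other way, from 3.47 ± 0.454 to 6.69 ± 0.906. The kit was stranded per the labels, but how the counting used strand is not given in the sources used here, so reads where the genes overlap cannot be assigned with certainty.

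Higd1a (ENSMUSG00000038412, chromosome 9, 121848563 to 121858362, minus strand) was at 139.7, 156.4 and 137.7 in DMSO and at 42.4, 34.1 and 35.3 in PD. Of the DMSO mean 25.8% was left, and as for the other genes the groups did not overlap. The log2 difference was -1.93 ± 0.10 (SE, limma adjusted p = 2.47e-06).

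Ak4 (ENSMUSG00000028527, chromosome 4, 101419277 to 101466995, plus strand) was at 19.2, 29.0 and 21.4 in DMSO and at 1.83, 1.92 and 1.19 in PD. Its DMSO samples spread the most of the 6 genes, with an SD of 22.3% of the mean, and still stood at least 9.98 times above the highest PD sample. The log2 difference was -3.18 ± 0.19 (SE, limma adjusted p = 4.92e-06). Because its PD values are low, the pseudocount shrinks this difference: the ratio of means was 14.1.

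Mgarp (ENSMUSG00000037161, chromosome 3, 51388412 to 51396738, minus strand) was at 41.65, 54.04 and 43.75 in DMSO and at 0.86, 0.58 and 0.18 in PD, so it was close to the bottom of the measured range after treatment. The ratio of means was 86.1, and the ratio of a DMSO to a PD sample lay between 48.4 and 300.2. Of all genes in the table, 2 had a lower difference on log2(value + 1) than its -4.96 ± 0.19 (SE, limma adjusted p = 1.01e-06). That rank rests on the pseudocount. Aire, 1 of those 2, fell 45.7-fold by the ratio of means, while Exoc3l4 fell 147.4-fold and Ngfr 148.7-fold. With a pseudocount of 0.1 the difference of Mgarp was -6.35 ± 0.42, and its PD samples spread widely, with an SD of 63.3% of their mean.

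**Figure D2:**
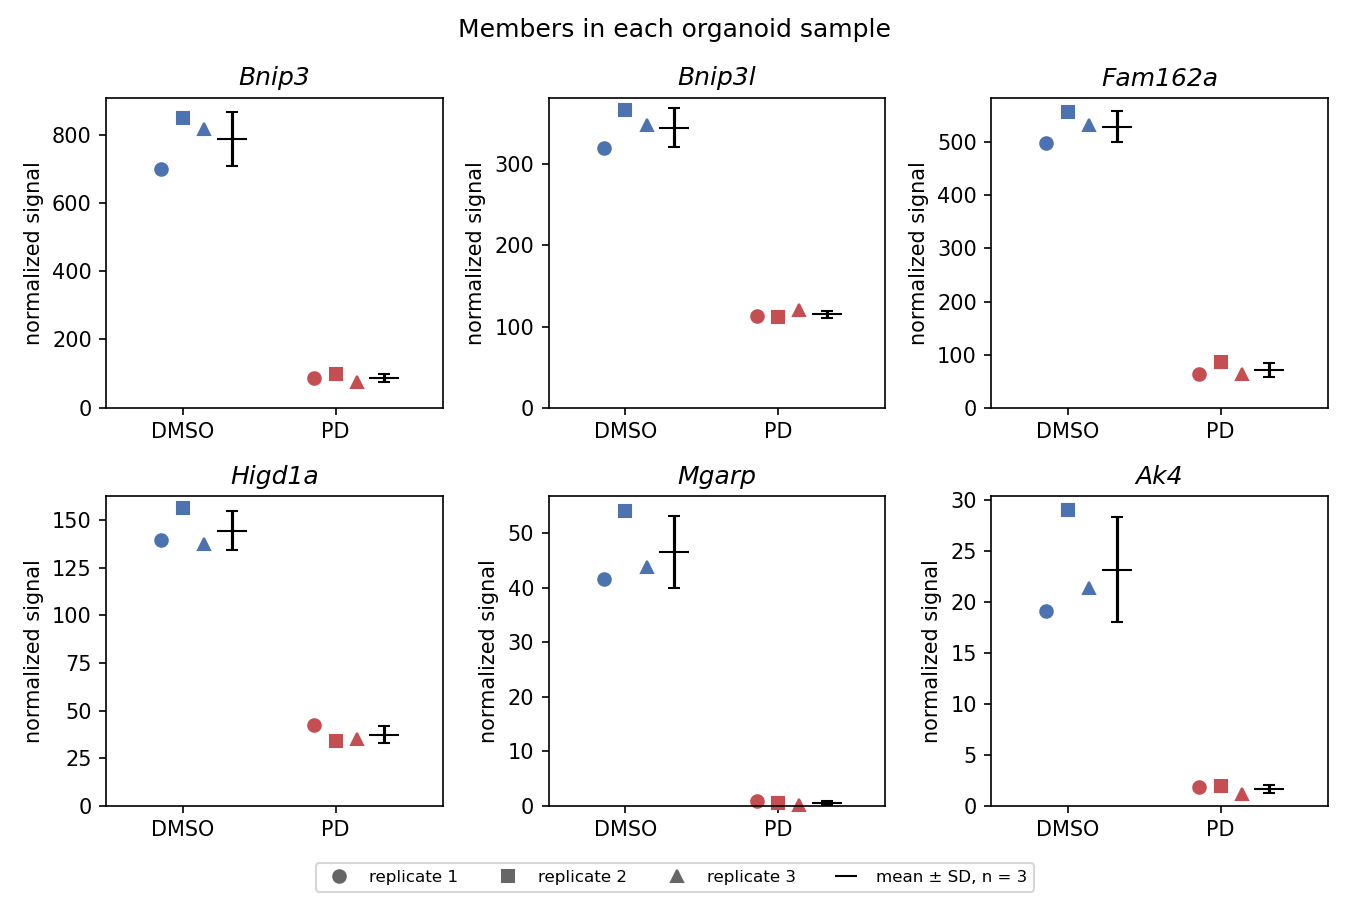
Normalized signal (linear axes from 0, a separate scale for each gene) in the 3 DMSO and 3 PD samples; marker shape gives the replicate and the bars the mean ± SD (n = 3). In all 6 panels the PD samples lie below the DMSO samples, from Bnip3l with 33.3% of the DMSO mean left to Mgarp with 1.16%.

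Set in order by the ratio of means, the falls were 86.1-fold for Mgarp, 14.1-fold for Ak4, 9.09-fold for Bnip3, 7.47-fold for Fam162a, 3.88-fold for Higd1a and 3.00-fold for Bnip3l. The genes' changes were compared in all 15 pairs by the log2 ratio within each sample. On log2(value + 1), 13 of the 15 pairs had ratios that did not overlap between groups. Each of those had an exact permutation p = 0.1 (0.115 adjusted over the 15 pairs), the smallest p the design allows. The share of other gene pairs of the table without overlap was not computed, so the counts of pairs here have no background to be read against. The pairs that overlapped were Bnip3 with Ak4, whose log2 ratio changed by 0.008, and Fam162a with Ak4, at 0.29 (exact permutation p = 0.3). Both rest on the pseudocount: without one, an alternative chosen after seeing the data, none of the 15 pairs overlapped, and Bnip3 to Ak4 changed by 0.64 and Fam162a to Ak4 by 0.91. Closest neighbours without a pseudocount were Bnip3 and Fam162a, at -0.27, and Bnip3l and Higd1a, at 0.38.

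Within the DMSO group the 6 genes shared an order. Sample 2 was the highest for 6 of 6 genes, at 105.2% to 125.1% of the gene's DMSO mean, and sample 1 the lowest for 5 of 6, with Higd1a lowest in sample 3. Part of that order is common to the table, where sample 2 was the highest DMSO sample for 45.1% of genes and sample 1 the lowest for 49.9%. In the panel of other HIF targets, sample 1 was lowest for 32 of 37 genes and sample 2 highest for 23. Within PD the order was mixed: sample 3 was the lowest for 4 genes and sample 2 for Bnip3l and Higd1a. Sample 3 was also the lowest PD sample for 24 of the 37 panel genes, and for 33.2% of all genes of the table. These orders are among 3 samples of a group and are given with no test.

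**Figure D3:**
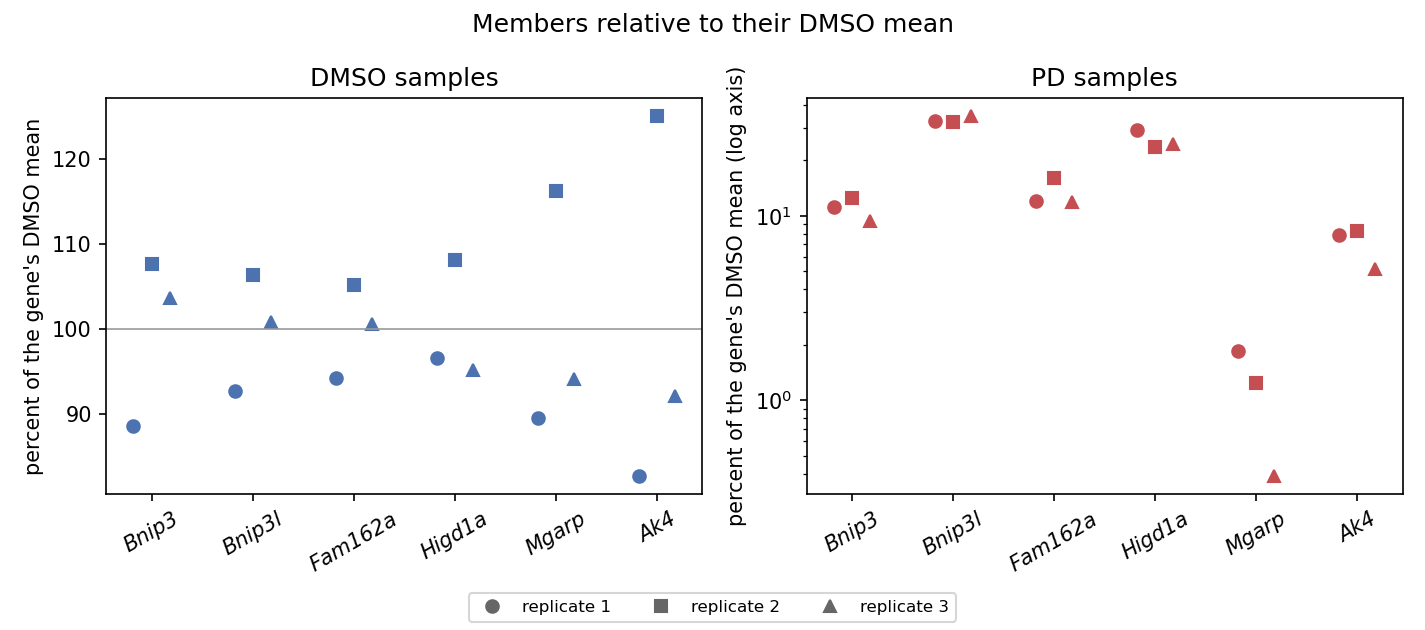
Each sample as a percent of the gene's DMSO mean, for DMSO samples on a linear axis (left, line at 100) and PD samples on a log axis (right); marker shape gives the replicate. The square of DMSO sample 2 is the highest left-hand point for all 6 genes, and on the right Mgarp lies at 0.387% to 1.85% and Bnip3l at 32.4% to 34.8%.

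The genes of the table with the profile nearest to each of the 6 were sought by Euclidean distance over 6 samples, on log2(value + 1) relative to the DMSO mean, among 2690 genes with a DMSO mean of at least 5. Fam162a lay next to the glycolytic genes Aldoa (distance 0.0939), Pgk1 (0.0982) and Gpi1 (0.216), of which Pgk1 was at 2090.2, 2445.8 and 2308.8 in DMSO and at 282.3, 353.7 and 266.0 in PD, with sample 2 highest on both sides like Fam162a. Bnip3 lay next to the growth factor genes Pgf (0.167) and Fgf11 (0.222) and the actin bundler gene Espn (0.270). Ak4 had Pgf (0.287), Bnip3 (0.292) and Espn (0.360). Nearest to Bnip3l were Npnt (0.0971), Slc38a4 (0.102) and the malic enzyme gene Me1 (0.110), and nearest to Higd1a were Rem2 (0.0984), the kinesin gene Kif18a (0.164) and Plek2 (0.195). Mgarp had no close match: Exoc3l4 (0.381), Ngfr (0.698) and Aire (0.807) came nearest. The distance is dominated by the size of the change between groups, is a description, and rests on the pseudocount where values are low. By the ratio of means, Rem2 fell 7.14-fold, Plek2 6.20-fold and Kif18a 4.60-fold beside 3.88-fold for Higd1a. Pgf, at 0.9, 0.93 and 0.68 in PD, fell 19.1-fold beside 9.09-fold for Bnip3. Exoc3l4 fell 147.4-fold, Ngfr 148.7-fold and Aire 45.7-fold beside 86.1-fold for Mgarp.

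Other known HIF targets in the table fell with these genes. Of a panel of 41 such targets, 37 are listed, and all 37 were called lower, beside 51.1% of all genes of the table. Their median log2 difference was -2.59, with a middle range from -3.07 to -1.63. The panel was written with earlier results of these data known, and the cause of the fall was not tested. Among the panel genes named by the smallest adjusted p, the glucose-6-phosphate isomerase gene Gpi1 fell from 1537 ± 84.2 to 210.5 ± 15.3, the stress-response gene Ndrg1 from 205.3 ± 39.4 to 3.7 ± 0.264, and the pyruvate kinase gene Pkm from 1967 ± 113 to 446.6 ± 22.2 (SD, n = 3). By the difference on log2(value + 1), Mgarp fell further than 36 of the 37, since 1 panel gene had a lower one. By the same measure 9 panel genes fell further than Bnip3 and than Ak4, 13 than Fam162a, 25 than Higd1a and 28 than Bnip3l. The 6 genes thus span the panel, in an order that rests on the pseudocount where values are low. Adm, named after its values were seen, went from 25.9 ± 6.37 to 0.0267 ± 0.0462 (SD, n = 3), and its log2 difference was -4.69. The groups did not overlap in 36 of the 37, beside 95.2% of all genes of the table, with PD the lower in 50.6%. The exception was Slc16a3, a lactate exporter named after its values were seen. It was at 91.0 in PD sample 3 and at 1.92 and 6.57 in the other PD samples. With median-of-ratios scaling, 35 of the 37 were called lower, and the calls of Slc16a3 (limma adjusted p = 0.0504) and Hilpda (0.152), a lipid droplet gene also named afterwards, were lost.

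Of 13 genes that make up the HIF pathway itself, 4 are listed and all 4 fell. Egln3 and Egln1 encode prolyl hydroxylases that mark HIF alpha subunits and are themselves HIF targets. Egln3 was at 47.43, 69.85 and 65.63 in DMSO and at 1.81, 2.07 and 1.83 in PD. The log2 differences were -4.40 ± 0.15 for Egln3, -1.92 ± 0.09 for Egln1, -1.33 ± 0.23 for Hif3a and -0.86 ± 0.28 for Epas1, which encodes HIF-2 alpha (SE). Hif1a, Arnt and Vhl are not listed, and are not analysed here.

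Among 21 other genes linked to hypoxia and mitochondria, not all of whose proteins are mitochondrial, 9 are listed, 7 lower and 2 higher in PD. Pdk1, whose kinase inhibits the pyruvate dehydrogenase of mitochondria, fell from 142.5 ± 10.9 to 28.3 ± 2.15 (SD, n = 3). Cox4i2, the hypoxic isoform of a cytochrome oxidase subunit, was at 10.1, 10.0 and 12.5 in DMSO and at 0.55, 1.03 and 0.39 in PD. Ndufa4l2, which in human and mouse cells is a HIF target linked to lower complex I activity, was named after its values were seen; it was at 2.38, 9.81 and 3.21 in DMSO and at 0, 0.14 and 0 in PD. Hk2, a hexokinase that binds mitochondria and is also counted in the panel of HIF targets, and the protease gene Lonp1 had log2 differences of -2.83 and -1.15, and Mxi1, an antagonist of MYC, of -1.09. The genes that rose were the dicarboxylate carrier Slc25a10, by 1.60, and the iron-sulfur scaffold Iscu, named after its values were seen, by 0.70.

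Other mitophagy genes and the autophagy machinery had members on both sides. Of 27 genes of other mitophagy receptors and regulators, 4 are listed. Mfn2, which encodes a protein of mitochondrial fusion, rose from 11.4 ± 0.53 to 23.2 ± 1.68, and Pptc7, a phosphatase that restrains BNIP3 and BNIP3L, rose from 8.06 ± 0.256 to 17.1 ± 0.144. The autophagy adaptor gene Tax1bp1 rose by 0.67 on the log2 scale, and Vdac1, the outer membrane channel, fell by 0.82. Of 30 genes of autophagosome formation 4 are listed. Map1lc3b, whose LC3B protein the BNIP3 proteins bind, rose from 41.6 ± 0.919 to 69.8 ± 1.65, and the kinase gene Ulk2 rose by 0.74. Gabarapl1 and Atg9b had log2 differences of -0.53 and -0.75; the call of Gabarapl1 was lost with median-of-ratios scaling, at -0.18 (limma adjusted p = 0.0818). Pink1 and Fundc1 are not listed.

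**Figure D4:**
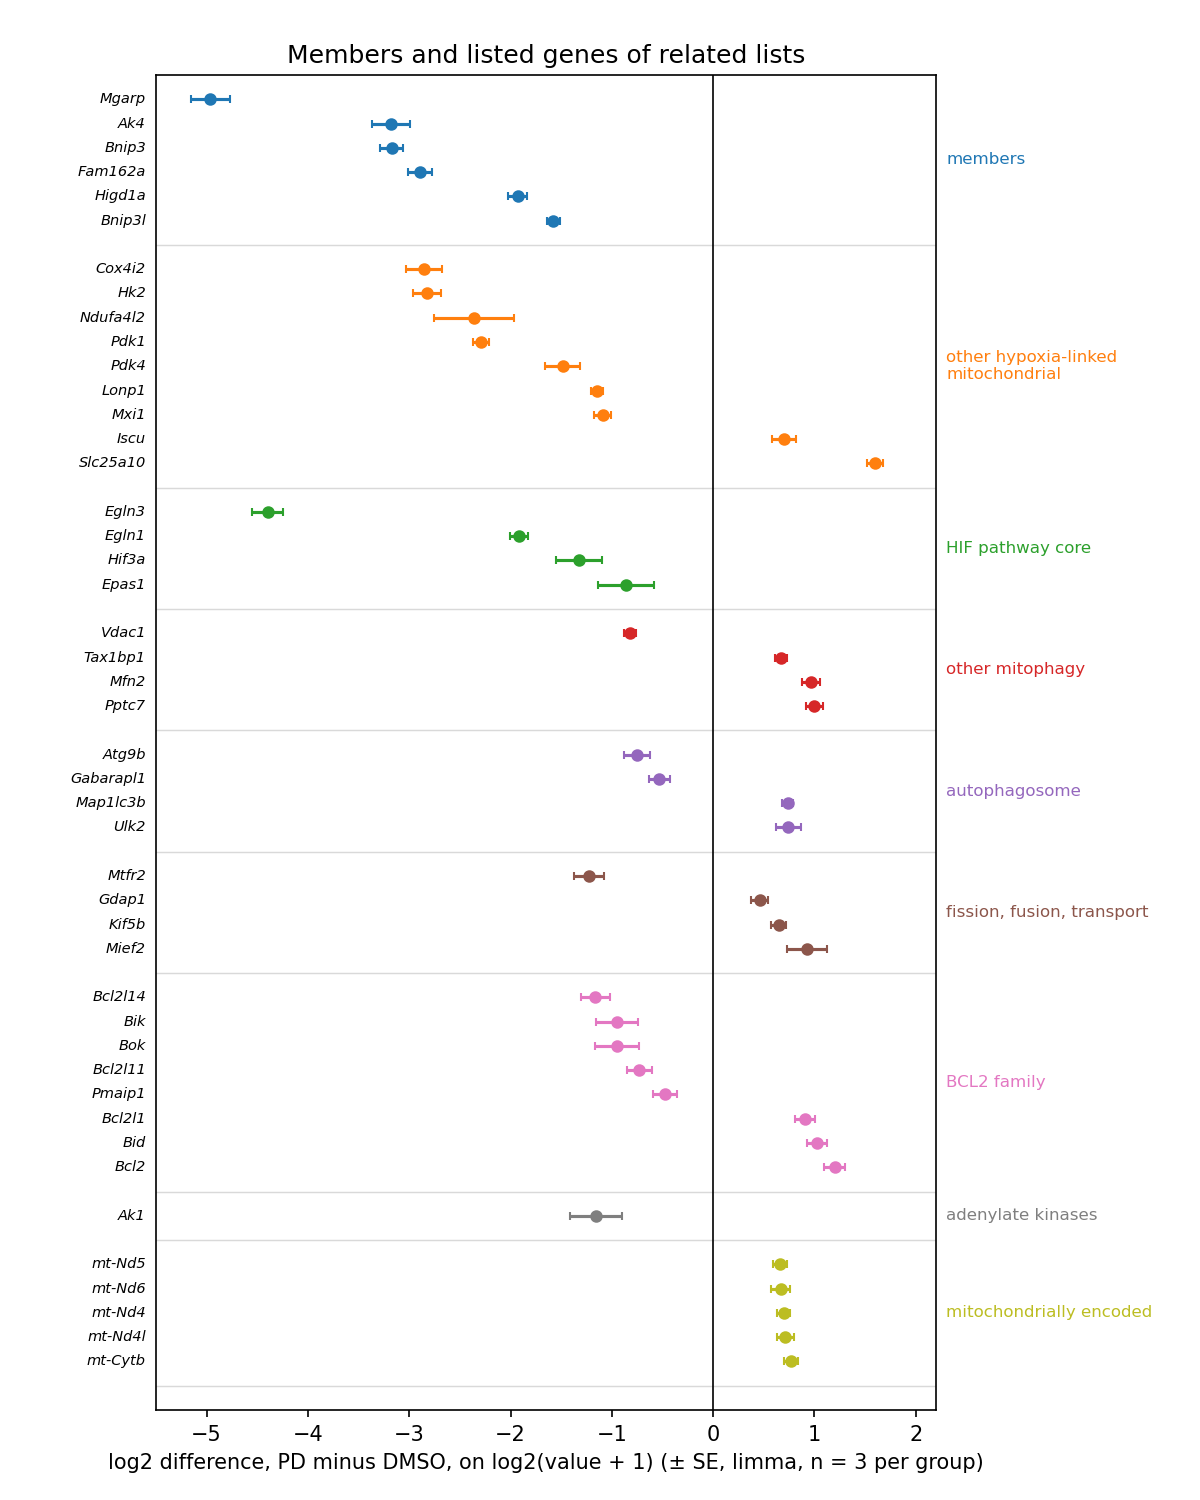
Log2 difference of PD minus DMSO on log2(value + 1) with its SE (limma, n = 3 per group) for the 6 genes and for listed genes of the related lists, sorted within each list. All 6 members lie between -4.96 and -1.58, the 5 mitochondrially encoded genes lie between 0.66 and 0.77, and the mitophagy, autophagosome and BCL2 family lists have genes on both sides of 0.

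BNIP3 and BNIP3L carry a BH3-like motif and belong at the edge of the BCL2 family, of which 8 of 22 genes fixed for it are listed. The survival genes Bcl2 and Bcl2l1 rose, from 5.76 ± 0.46 to 14.5 ± 0.893 and from 24.6 ± 1.98 to 47.0 ± 4.64, and the proapoptotic Bid rose by 1.02 on the log2 scale. Bcl2l14, Bcl2l11, which encodes BIM, and Bik had log2 differences of -1.16, -0.73 and -0.95; with Bok and Pmaip1, both named after their values were seen, 5 were lower in all. Of the kinases related to AK4, cytosolic Ak1 fell from 4.03 ± 1.49 to 1.24 ± 0.584. Of 23 genes of mitochondrial fission, fusion and transport 4 are listed: Kif5b, the kinesin that carries mitochondria, Mief2 and Gdap1 rose by 0.65, 0.93 and 0.46, and Mtfr2 fell by 1.22. None of 16 genes of mitochondrial biogenesis is listed, which says only that they did not meet the authors' selection.

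The listed transcripts made by the mitochondrion itself went the other way. Of 13 mitochondrially encoded protein genes 5 are listed, and the rest did not meet the authors' selection. All 5 were called higher, beside 44.5% of all genes of the table, mt-Cytb from 7813 ± 593 to 13298 ± 244 (SD, n = 3). Their summed signal was 24905 to 28605 in the DMSO samples and 43164 to 45489 in the PD samples, or 8.50% to 9.89% and 14.9% to 15.3% of the table's sum. The share counts only listed genes, all selected for a change, so it cannot serve as a sign of RNA quality. Its part in the results of the 6 genes was not tested. Scaling the libraries to their sums without mitochondrially encoded genes, which bears on the scaling alone, gave log2 differences of the 6 from -4.91 for Mgarp to -1.49 for Bnip3l.

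The sums of the table were 289255 to 293278 in DMSO and 290560 to 296997 in PD; they are not depths, which are unknown. Of 14 otic epithelium markers 8 are listed, 6 called lower and 2 higher. Their sum, to which Epcam and Krt18 gave the most in DMSO, was 1962 to 2064 in DMSO and 1079 to 1138 in PD. Cdh1 rose from 53.6 ± 1.54 to 114.1 ± 9.27, and Oc90, named after its values were seen, from 117.1 ± 4.70 to 190.9 ± 34.7. Of 14 hair cell markers 8 are listed, 5 called higher and 3 lower, with a median log2 difference of 0.49. Their sum was 35.2 to 44.4 in DMSO and 21.5 to 24.8 in PD, and its fall was carried by Espn, from 32.3 ± 4.62 to 2.46 ± 0.168. Calb1 and Ptprq rose by 3.18 and 2.13 on the log2 scale, from low DMSO means of 0.42 and 0.59 to 11.6 and 6.01 in PD. Otof, named after its values were seen, was at 0.02 to 0.07 in DMSO and 0.23 to 0.61 in PD. Of 14 fibroblast and mesenchyme markers 11 are listed, 7 called higher, 2 lower and 2 not called. They summed to 1754 to 1928 in DMSO and 3984 to 4499 in PD. Nearly all of that sum came from Lum, Dcn and Vim. The means of these genes were 619.3, 767.4 and 445 in DMSO and 1794, 1603 and 803 in PD. Col1a2, not called, stayed at or below 0.16. Of 12 neuron markers 5 are listed, 4 called higher, with a median log2 difference of 1.31. Gap43, Syt1 and Dcx rose by 1.56, 1.40 and 1.31. Their means were low, at 0.167, 0.243 and 0.2 in DMSO and 2.42, 2.29 and 1.98 in PD. Map2, which made up most of the sum, fell by 0.71, from a mean of 52.5 to 31.6. The sum was 48.3 to 55.8 in DMSO and 36.2 to 41.4 in PD. Of 10 endothelium markers 4 are listed, 3 called higher, with a median of 0.91. Kdr and Emcn rose by 1.56 and 1.11, Kdr from a low DMSO mean of 0.79 to 4.28 in PD. Cdh5 was at 0, 0.05 and 0 in DMSO and 0.56, 0.57 and 0.86 in PD. Tek fell by 1.84, and the sum was 45.8 to 49.4 in DMSO and 35.7 to 42.2 in PD. No erythroid marker of 14 is listed. In these bulk samples fewer cells of a type and less RNA per cell cannot be told apart, and the part of cell composition in the fall of the 6 genes was not tested.

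Near-identical copies exist for 4 of the 6 genes in the GENCODE M21 transcripts, 3 pseudogenes for Bnip3 and 1 each for Bnip3l, Higd1a and Ak4, none of them in the table. How reads shared with them were counted is not given in the sources used here, so those levels are uncertain by that amount. The pseudogene Gm18258 lies on the opposite strand within Bnip3, and its signal also fell, from 1.68 ± 0.534 to 0.11 ± 0.191.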

How the data were processed

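Per the submitters' processing notes, Trimmomatic, HISAT2, HTSeq and DESeq2 were used with mouse build mm10; their versions and roles, the annotation and the strand setting were not given in the sources used here. Per the file headers, the authors deposited a normalized signal, to 2 decimals and of unstated scale, for each gene in each sample. They also deposited group means, the fold (a ratio) of PD over DMSO, the log2 of that fold, and p-values with their adjusted form. The table lists only genes the authors selected on these samples: 2340 with a fold above 1 and 2654 below. Depth is unknown, so no counting interval is given. Columns were matched to samples by name, and 0 were left over.

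All 4994 genes were fitted with limma 3.58.1 in R 4.3.3 on log2(value + 1), letting the spread vary with the level (limma-trend), over all 6 samples, no filter and no block; p-values were adjusted by Benjamini-Hochberg and called under 0.05. The fit was tested on simulated data with known changes, in which 4794 of the 4994 genes were left unchanged. It recovered 46 of 50 genes changed 1.5-fold, with 5 false calls among the unchanged genes. The real genes were all selected for a change, a setting that the simulation did not copy. Member ratios were tested by exact permutation (scipy 1.17.1, Python 3.11.15). Positions come from GENCODE M21 (GRCm38, the assembly of mm10), where 4988 identifiers were found. Copies were sought with blastn 2.17.0 at 95% identity over 80% of the copy's length. Promoters are RefSeq windows of GRCm38.p6.

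The members and gene lists were chosen with earlier results of these data known, and the counts of lists are descriptions without a set test. Besides the members, up to 6 genes per list were named by the smallest adjusted p, with every uncalled gene of a list that has at most 4 and the 3 nearest profiles per member; other genes with values are marked where they appear or are named for their overlap with a member. Some genes of these lists are not reported here. Of lists named here, no erythroid marker and no biogenesis gene is in the table.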

Additional observations from a re-analysis of the deposited data

How the results depend on the processing

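The 14 alternatives changed the pseudocount, the filter, the scaling, the trend or the pairing, or left out a sample. In all of them the 6 genes kept their direction and their call, with adjusted p-values of at most 6.24e-05 by limma. Every listed gene had been selected for a change on these same samples, so a kept call was nearly fixed beforehand. Median-of-ratios scaling moved the median over all genes from -0.42 to -0.18. The log2 difference of Bnip3 went from -3.17 to -2.82 and that of Bnip3l from -1.58 to -1.22. Relative to the median over all genes, Bnip3 was at -2.76 and -2.64, and Bnip3l at -1.16 and -1.04. The factors of this scaling came from the listed genes alone. All of those were selected for a change, while the method takes most genes as unchanged, so it cannot show which scaling is right. Genes called over the table numbered 4770 as reported and between 4429 and 4803 otherwise, except with the filter, where 4159 of the 4314 genes left were called. With the replicate block 4761 were called, and the block changed no call among the 6 genes (largest adjusted p = 3.05e-05 with the block, for Higd1a). Deviations of same-numbered samples correlated at -0.03, -0.005 and -0.001, and those of samples with unlike numbers at -0.02 to 0.03. Values so near 0 throughout cannot decide whether the numbers mark pairs, which the labels do not state. The change in the log2 ratio of Bnip3 to Bnip3l stayed between -1.71 and -1.46 when any 1 sample was left out. Of the counts per list, 4 moved by over 1.5 times: the autophagosome genes called lower went from 2 to 1 with the filter on low values and with median-of-ratios scaling, the hair cell markers called higher from 5 to 2 with the filter, and the mesenchyme markers called lower from 2 to 1 with that scaling. The HIF target panel had 35 to 37 of 37 genes called lower when any 1 sample was left out, and the HIF pathway core 3 or 4 of 4. The depth of the libraries is unknown, so how far it limits the low PD values of Mgarp and Ak4 could not be assessed.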
